A study of Mus musculus with 24 samples.

Results

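Plasminogen activation in white fat was followed through 5 genes: Plat, Plau, Plaur, Serpine2 and Serpinf2. They were listed by name, 5 of the 49585 genes in the count tables, and Serpine2 was selected on its measured level in these same libraries, which differed strongly between fat depots. The differences between depots in wild-type mice are therefore given as a description, without a test, and so is every difference between depots of Serpine2. The RNA came from whole adipose tissue of male C57BL/6J mice, in 24 libraries and 6 groups. Subcutaneous adipose tissue, SAT, was sampled after 20 weeks of feeding on a diet with 10% of its energy as fat (low-fat, n = 4) or 60% (high-fat, n = 4). For the genotype, Azin2-/- mice and their wild-type littermates all ate the 60% fat diet for 8 weeks. Of these mice there were 5 wild-type and 3 Azin2-/- libraries of SAT, and 4 of each genotype of epigonadal adipose tissue (GAT). Azin2 encodes an antizyme inhibitor, a regulator of polyamine synthesis, and how its allele was made was not given in the labels.

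As background, plasminogen circulates as an inactive zymogen made by the liver, and plasmin, its active form, dissolves fibrin clots and degrades matrix. Plat encodes tissue-type plasminogen activator, which works best on fibrin. Plau encodes urokinase, which works at the cell surface where Plaur, its lipid-anchored receptor, holds it. Serpins are suicide inhibitors of such proteases. Serpine2 encodes protease nexin-1, an inhibitor of thrombin, urokinase and tissue-type activator that stays bound to the matrix and the cell surface. Serpinf2 encodes alpha-2-antiplasmin, the main plasma inhibitor of plasmin, which is made chiefly in the liver.

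In the GENCODE M21 annotation of GRCm38, all 5 are protein-coding genes that overlap no other gene. Plat (ENSMUSG00000031538) lies on the plus strand at chr8:22757727-22782844, Plau (ENSMUSG00000021822) on the plus strand at chr14:20836660-20843385, and Plaur (ENSMUSG00000046223) on the plus strand at chr7:24462484-24475968. Serpine2 (ENSMUSG00000026249) lies on the minus strand at chr1:79794197-79861180, and Serpinf2 (ENSMUSG00000038224) on the minus strand at chr11:75431732-75439591. Promoter windows from RefSeq (build GRCm38.p6) were matched for 3 of the 5 genes, Plaur, Serpine2 and Serpinf2. The 250 bases before the RefSeq start are printed for Plaur and Serpine2, the receptor that differed most with diet and the inhibitor listed for its difference between depots. The RefSeq start of Plaur lies 1 base from the GENCODE 5′ end, but that of Serpine2 lies 2515 bases inside the GENCODE gene, so its window precedes the RefSeq start only. Both read 5′ to 3′ on the gene's own strand, and capitals mark matches to the motifs named below.
Plaur, plus strand, chr7:24462233-24462482: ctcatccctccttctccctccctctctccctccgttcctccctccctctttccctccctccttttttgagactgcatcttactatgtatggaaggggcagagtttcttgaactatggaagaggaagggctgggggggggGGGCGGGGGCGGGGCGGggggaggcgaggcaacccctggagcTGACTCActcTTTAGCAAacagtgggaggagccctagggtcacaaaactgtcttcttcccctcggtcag
Serpine2, minus strand, chr1:79858666-79858915: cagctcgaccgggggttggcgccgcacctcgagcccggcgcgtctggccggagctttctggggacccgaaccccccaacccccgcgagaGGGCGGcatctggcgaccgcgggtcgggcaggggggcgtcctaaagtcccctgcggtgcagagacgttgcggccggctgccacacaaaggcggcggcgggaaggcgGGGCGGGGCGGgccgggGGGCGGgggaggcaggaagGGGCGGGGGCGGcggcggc

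The Plaur window held an AP-1 motif (TGANTCA) with its first base at -69, counted in bases from the start, 1 C/EBP motif (TTGCNNAA) at -59 and 3 GC boxes (GGGCGG) at -111, -105 and -100. The Serpine2 window held 6 GC boxes, between -161 and -13, of which the pair at -55 and -50 and the pair at -19 and -13 adjoin or overlap, and its full 300 bases were 77.7% G and C. The same full window was 59.3% G and C for Plaur, and the median over all promoters was 52.7%. The Serpinf2 window held no match to these motifs, nor to a TATA box (TATAAA) or an NF-kB motif. Both strands were searched, and the 5 motifs were chosen after the sequences had been seen. Of 32851 promoters of the same length, 7.81% held the AP-1 motif, 10.8% the C/EBP motif, 35.7% the GC box, 13.6% the TATA box and 0.411% the NF-kB motif. These matches are a description of letters in the windows, and no binding was measured.

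Total counts per library were 31.96 to 46.62 megareads. Summed levels of 5 marker genes per cell type, in CPM (read counts scaled to the library total), set some libraries apart. Low-fat SAT replicate 1 held 12725 CPM of epididymis markers, against at most 0.12 CPM in the other SAT libraries, and its Hoxc10 (0.05 CPM) and Tbx15 (0.12 CPM), genes that mark subcutaneous fat, were at the level of GAT. This library goes against its label for the depot, so it is called the library labelled low-fat SAT replicate 1, and the main diet results are given with and without it. Wild-type GAT replicate 3 held 622 CPM of epididymis markers. Skeletal muscle markers reached 46754 CPM in Azin2-/- SAT replicate 2, 40474 CPM in wild-type SAT replicate 3, 14833 CPM in low-fat SAT replicate 5 and 4595 CPM in high-fat SAT replicate 6. Summed adipocyte markers were 6659 CPM in the library labelled low-fat SAT replicate 1 and at least 14686 CPM in each of the others. Azin2 itself was 6.73 to 11.5 CPM in Azin2-/- SAT against 14.6 to 26.0 CPM in wild-type SAT, and 12.7 to 19.8 CPM in Azin2-/- GAT against 22.9 to 26.6 CPM in wild-type GAT. The labels do not state that libraries came from separate animals beyond the numbers and marks in their titles, so p-values measure the spread between these libraries.

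Levels of the 5 genes are given as normalised CPM, scaled by the TMM method over all 24 libraries. Levels were also divided by the bases in all annotated exons of a gene, 2367 for Plau, 2617 for Plaur, 6241 for Plat and 8287 for Serpine2. These lengths take in every annotated transcript, and the order of genes in this measure depends on them. Per kilobase of exon so counted, Plau ranked first of the 5 in every group. It ran from 19.3 ± 6.78 (SD, n = 4) normalised CPM per kilobase in low-fat SAT to 80.1 ± 16.1 (SD, n = 4) in Azin2-/- GAT. Serpine2 followed in SAT, with 10.8 to 15.8 as group means, and fell behind Plaur in GAT, where Serpine2 had means of 5.3 in wild-type and 5.97 in Azin2-/- mice and Plaur 5.68 and 9.80. Plat lay between 3.25 and 5.55 in all groups. Without division by length, Serpine2 was above Plau in wild-type SAT, at 131 against 60.2 normalised CPM, and below it in high-fat SAT, at 89.6 against 102. Serpine2 was then also above Plaur in GAT, at 43.9 against 14.9 in wild-type and 49.5 against 25.6 in Azin2-/- mice.

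**Figure D1:**
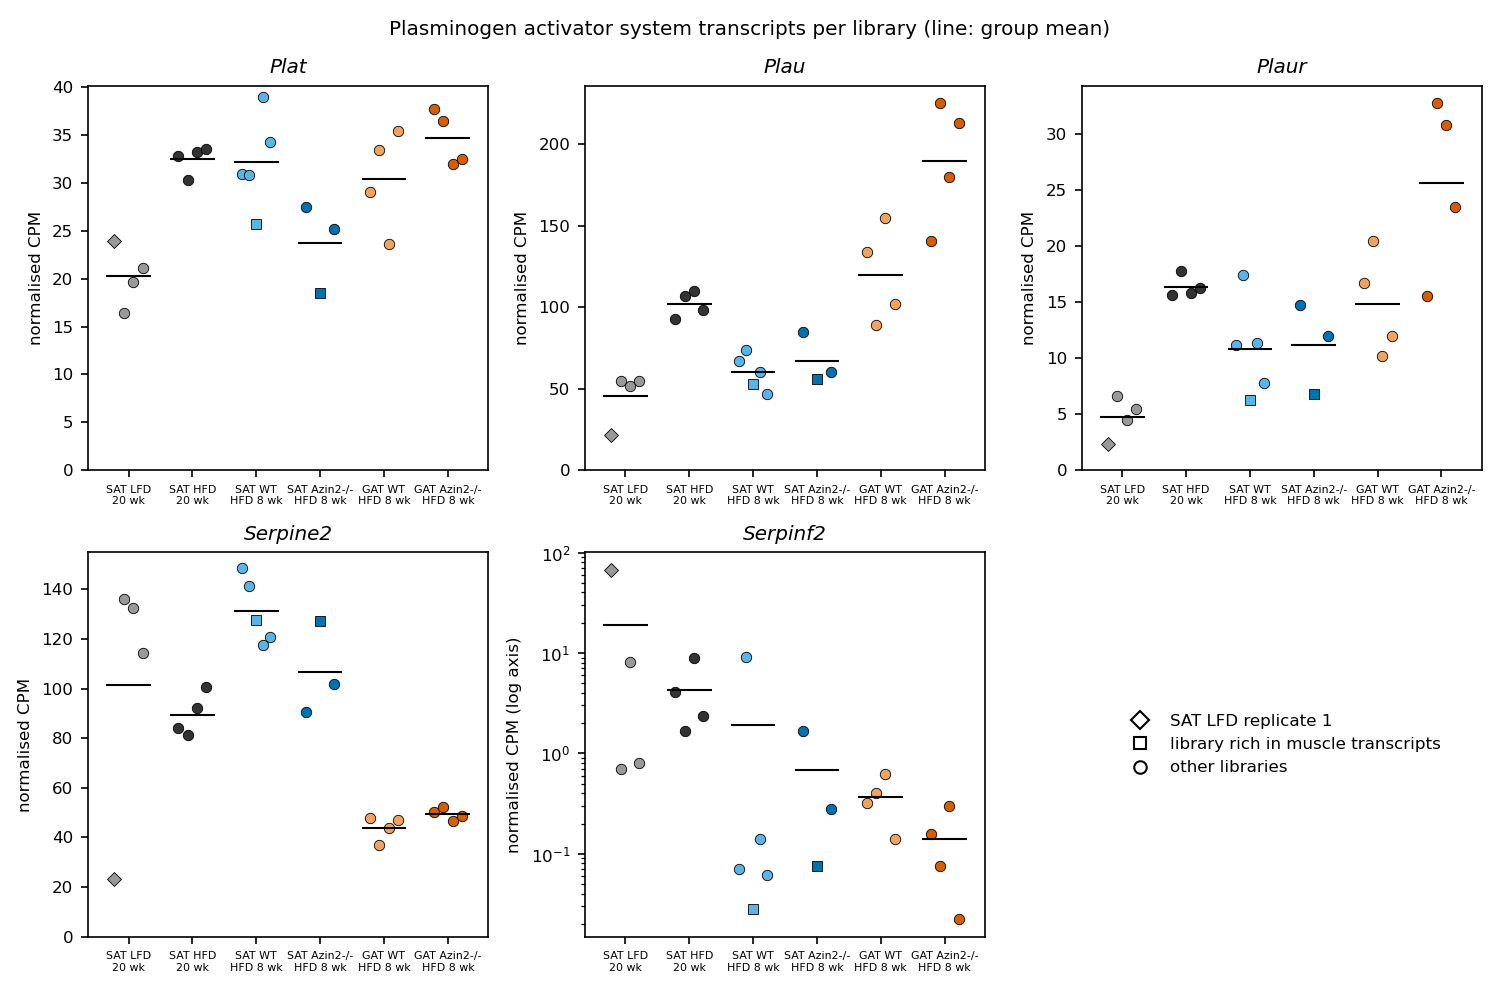
Normalised CPM of Plat, Plau, Plaur, Serpine2 and Serpinf2 (y axis, linear from 0 except a log axis for Serpinf2) in each of 24 libraries, by group (x axis), with the group mean as a line. Serpine2 lies between 81.3 and 149 in 15 SAT libraries and between 37.1 and 52.4 in 8 GAT libraries, with the library labelled low-fat SAT replicate 1 (diamond) at 23.3.

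The order of the group means differed between genes. Serpine2 was highest in wild-type SAT and then fell through Azin2-/- SAT, low-fat SAT, high-fat SAT, Azin2-/- GAT and wild-type GAT. Neighbours in that order overlapped except high-fat SAT and Azin2-/- GAT. Without the library labelled low-fat replicate 1 the low-fat mean of Serpine2 was 128 ± 11.6 (SD, n = 3), above Azin2-/- SAT, and its libraries lay above those of high-fat SAT. Low-fat SAT stayed last for Plau, Plaur and Plat without that library. Plau ran from Azin2-/- GAT through wild-type GAT, high-fat SAT, Azin2-/- SAT and wild-type SAT to low-fat SAT, and only high-fat SAT and Azin2-/- SAT did not overlap as neighbours. Plaur had the same groups at both ends, Azin2-/- GAT with 25.6 ± 7.86 (SD, n = 4) and low-fat SAT with 4.76 ± 1.81 (SD, n = 4) normalised CPM, and every pair of neighbours overlapped. Plat also ran from Azin2-/- GAT (34.7 ± 2.87, SD, n = 4) to low-fat SAT (20.3 ± 3.10, SD, n = 4), with overlap between all neighbours.

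The first comparison asks how these genes differ in SAT after the high-fat and the low-fat diet. Both activators and the urokinase receptor were higher on the high-fat diet, by 1.57-fold for Plat, 2.21-fold for Plau and 3.41-fold for Plaur. Serpine2 was not separated in the full set of libraries and was lower on the high-fat diet once the library labelled low-fat SAT replicate 1 was left out. A gene was called at an adjusted p under 0.05 in edgeR's quasi-likelihood test, with Benjamini-Hochberg adjustment over the whole table. Of the 5 genes 3 were called, all higher, where 21.2% of the 17066 tested genes were called and 10.8% were called higher. In whole tissue, fewer cells of a type and less RNA per cell cannot be told apart, here and in every comparison below.

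Plat was 23.9, 16.5, 19.6 and 21.2 normalised CPM in low-fat replicates 1, 3, 5 and 6, and 32.8, 30.3, 33.2 and 33.5 in high-fat replicates 3, 4, 5 and 6. Every high-fat library lay above every low-fat library. The log2 fold change of Plat was 0.65 (SE 0.131, edgeR adjusted p = 0.0127), and 0.76 (SE 0.0925, adjusted p = 0.000318) without low-fat replicate 1. Plau was 21.7, 54.6, 51.6 and 54.7 in the low-fat libraries in the same order and 92.9, 107, 110.1 and 98.0 in the high-fat libraries. The diets did not overlap, and the library labelled low-fat replicate 1 stood below its group. The log2 fold change of Plau was 1.14 (SE 0.263, edgeR adjusted p = 0.0204), and 0.92 (SE 0.0678, adjusted p = 3.57e-05) without that library. Leaving out any 1 of the high-fat libraries ended the call for Plau, at log2 fold changes of 1.19 (replicate 3), 1.12 (replicate 4), 1.11 (replicate 5) and 1.17 (replicate 6) and edgeR adjusted p between 0.0526 and 0.0625. Those fits called 1802 to 2290 genes of all, against 3622 in the full fit. Plaur was 2.38, 6.65, 4.50 and 5.49 in the low-fat and 15.7, 17.8, 15.9 and 16.2 in the high-fat libraries. Again no library overlapped, and the log2 fold change was 1.77 (SE 0.273, edgeR adjusted p = 0.00474), or 1.56 (SE 0.131, adjusted p = 6.12e-05) without low-fat replicate 1. Over all tested genes, 33.1% had diets that did not overlap.

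Among the inhibitors, Serpine2 was 23.3, 136, 133 and 114 normalised CPM in the low-fat libraries and 84.0, 81.3, 92.3 and 101 in the high-fat libraries. A single low-fat library, the one labelled replicate 1, lay below all high-fat libraries, and the other 3 lay above them all. The share of all genes that separate in this way without that library is not given, so the separation is a description only. With all libraries the log2 fold change was -0.19 (SE 0.458, edgeR adjusted p = 0.777). Without that library Serpine2 was 128 ± 11.6 (SD, n = 3) on the low-fat and 89.6 ± 8.73 (SD, n = 4) on the high-fat diet. The log2 fold change was then -0.52 (SE 0.0904, edgeR adjusted p = 0.00189), a 1.43-fold lower level, in a fit where 47.0% of 17268 genes were called and 23.5% were called lower.

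**Figure D2:**
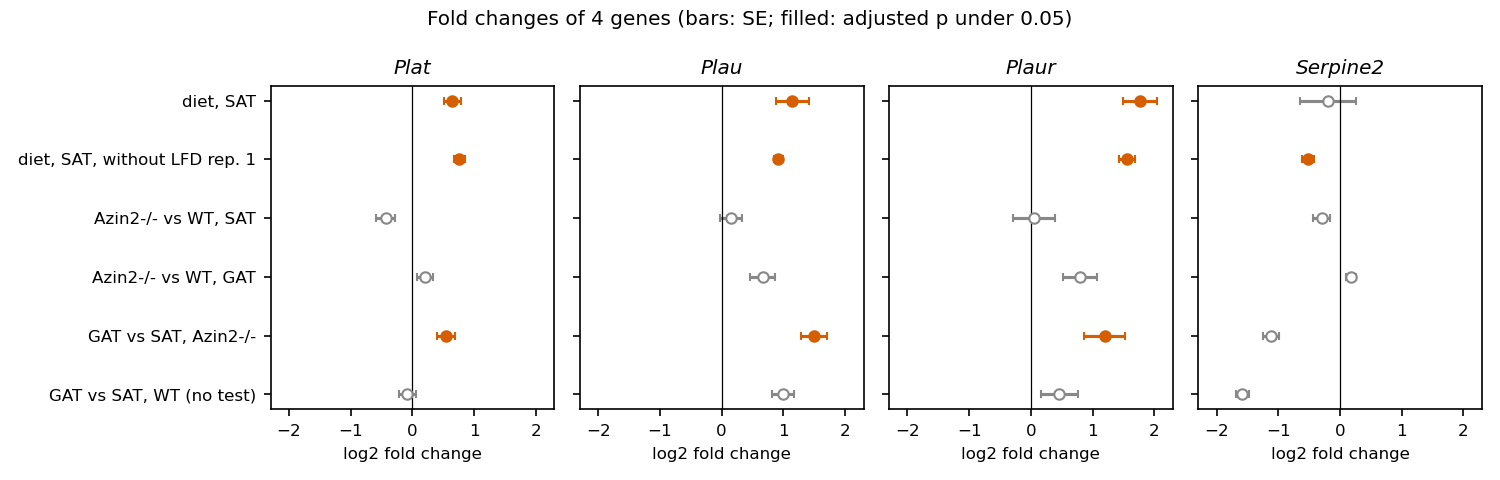
Log2 fold changes (x axis, bars are SE) of Plat, Plau, Plaur and Serpine2 in the diet comparison with and without the library labelled low-fat SAT replicate 1, in the genotype comparisons and between depots (y axis). Filled points passed an adjusted p of 0.05, and the open points of wild-type depots, and of Serpine2 between Azin2-/- depots, carry no test. Plat, Plau and Plaur lie right of 0 with diet, and Serpine2 lies left of 0 between depots at -1.11 and -1.58.

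Macrophage markers moved with the same comparison. The sum of Adgre1, Cd68, Csf1r, C1qa and Mrc1 was 177 to 263 CPM in low-fat and 751 to 953 CPM in high-fat SAT, all 5 were detected in both groups, and 5 of 5 were called higher with a median log2 fold change of 1.77. Macrophages are a known source of urokinase and its receptor. Their part in the higher Plau and Plaur was not tested. Without the library labelled low-fat replicate 1 the low-fat sums began at 200.1 CPM. Summed adipose progenitor markers were 491 CPM in that library, 251 to 323 CPM in the rest of its group and 443 to 527 CPM on the high-fat diet, with 2 of 5 called higher. Summed Schwann cell markers were 58.7 CPM in that library, 100.2 to 269 CPM in the rest of its group and 16.2 to 64.3 CPM on the high-fat diet, with 1 of 5 called lower. The part of these cells in the level of Serpine2 was not tested.

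**Figure D3:**
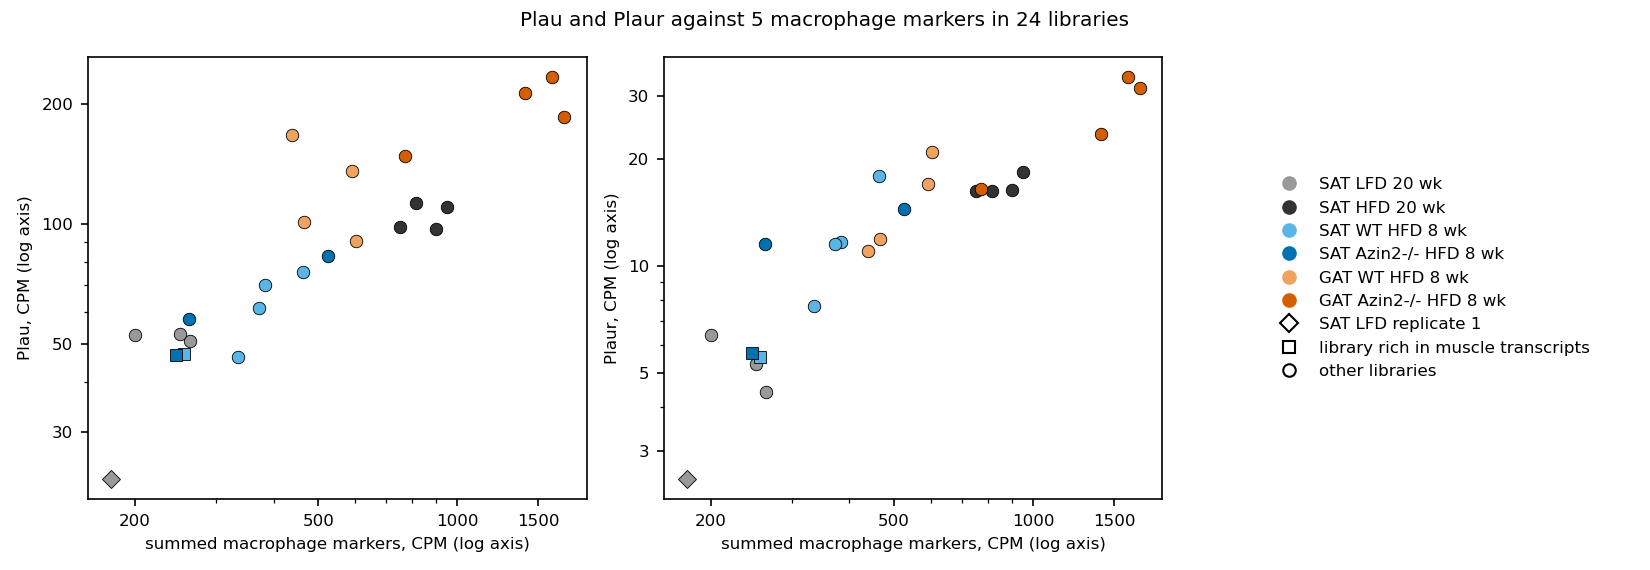
CPM of Plau (left) and Plaur (right) on log axes against the summed CPM of 5 macrophage markers (x axis, log) in 24 libraries, coloured by group. Azin2-/- GAT replicates 2, 3 and 4 lie at the upper right with marker sums of 1402 to 1705 CPM. Replicate 1 of that group has a sum of 772 CPM, within the range of high-fat SAT. Low-fat SAT libraries lie at the lower left with sums down to 177 CPM.

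A list of 36 other genes of plasminogen activation and clotting put these results beside their pathway. Of 33 tested with diet, 6 were called higher and 2 lower, where 21.2% of all genes were called, and the median log2 fold change was 0.57 against -0.09 over all tested genes. Higher were the protease inhibitor gene Tfpi2, the surface receptors Anxa2 and Mrc2, the growth factor gene Hgf, the thrombin receptor gene F2r and the fibrin cross-linker gene F13a1. Mrc2, whose product is an endocytic collagen receptor that associates with the urokinase receptor, was 65.5 ± 44.6 (SD, n = 4) on the low-fat and 351 ± 37.4 (SD, n = 4) normalised CPM on the high-fat diet. Its log2 fold change was 2.41 (SE 0.564, edgeR adjusted p = 0.0216), or 2.07 (SE 0.265) without low-fat replicate 1. F13a1 was 48.0 ± 19.3 and 134 ± 19.5 (SD, n = 4 each), with a log2 fold change of 1.46 (SE 0.303, edgeR adjusted p = 0.0142), or 1.23 (SE 0.169) without that library. Anxa2, whose product binds plasminogen and tissue-type activator at the cell surface, had 0.83 (SE 0.201, edgeR adjusted p = 0.0241), or 0.71 (SE 0.131) without it. Lower were F3, the tissue factor gene that starts clotting, and Thbd, the gene of thrombomodulin, which turns thrombin toward anticoagulation. Thbd was 243 ± 115 on the low-fat and 52.9 ± 6.24 on the high-fat diet (SD, n = 4 each), with a log2 fold change of -2.21 (SE 0.389, edgeR adjusted p = 0.0079), or -2.49 (SE 0.13) without low-fat replicate 1. F3 had -0.69 (SE 0.197, edgeR adjusted p = 0.0427) with overlapping libraries, and -0.86 (SE 0.103) without that library. Vtn, the vitronectin gene, had a log2 fold change of 0.46 (SE 0.478, edgeR adjusted p = 0.505), or 0.18 (SE 0.4, adjusted p = 0.739) without it. Without the library labelled low-fat SAT replicate 1, 9 of 33 were called higher and 3 lower, where 47.0% of all genes were called, and the median was 0.31 against -0.02 over all genes. Both medians take in genes that were not called and had a wide SE. With all libraries these include Plg at 0.91 (SE 1.24) and Fgb at 0.54 (SE 1.28). Plg was highest in libraries with high liver transcripts, as given below, so the medians are a description only. Leaving out low-fat replicate 5, or any 1 high-fat library, left 1 called higher, F13a1, and 1 lower, Thbd, in fits that called 1802 to 2517 genes of all.

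**Figure D4:**
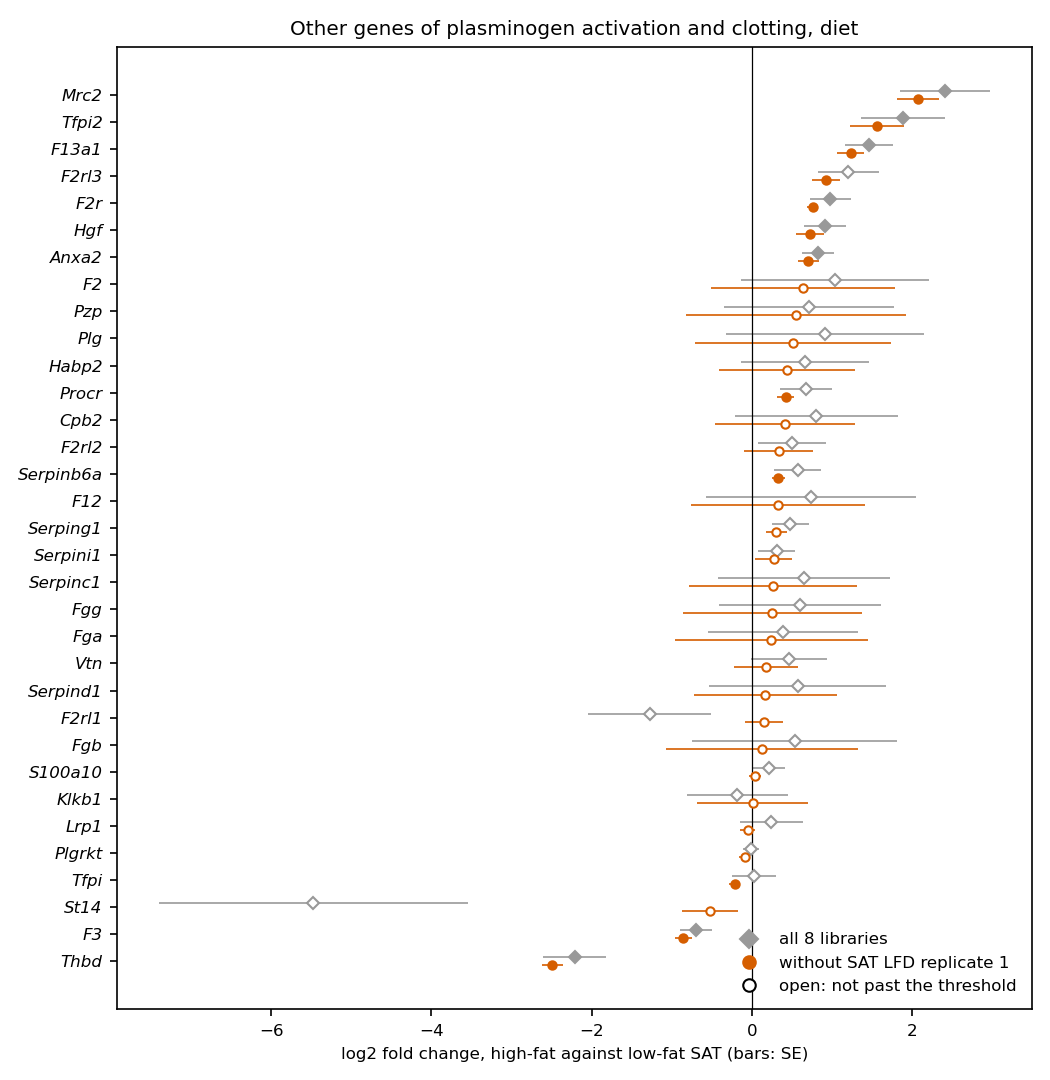
Log2 fold changes (x axis, bars are SE) of the tested genes of the pathway list (y axis), high-fat against low-fat SAT, with all 8 libraries (diamonds) and without the library labelled low-fat SAT replicate 1 (circles). Filled symbols passed an adjusted p of 0.05, with Mrc2 at the top and Thbd at the bottom in the smaller set.

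The second comparison asks what the loss of Azin2 does in SAT on the high-fat diet. None of the 5 genes was called by edgeR, where 1 of 16948 genes was (0.00590%), and at an unadjusted p under 0.05 there were 1745 genes, of which Plat was 1 of the 5. DESeq2 called 338 genes and limma-voom 299, again with 0 of the 5. Plat was 31.0, 30.8, 25.7, 39.0 and 34.3 normalised CPM in wild-type and 27.5, 18.5 and 25.2 in Azin2-/- SAT. The genotypes overlapped, with the lowest value in the muscle-rich Azin2-/- replicate 2, and the log2 fold change was -0.43 (SE 0.155, edgeR adjusted p = 0.425), or -0.35 (adjusted p = 0.267) without the muscle-rich libraries. Serpine2 was 149, 142, 128, 117 and 121 in wild-type and 90.6, 127 and 102 in Azin2-/- SAT. These also overlapped, with a log2 fold change of -0.30 (SE 0.135, edgeR adjusted p = 0.501). Plau had 0.15 (SE 0.179, edgeR adjusted p = 0.794) and Plaur 0.053 (SE 0.345, adjusted p = 0.968). Of the pathway list, 0 of 30 tested genes were called by edgeR and 5 had an unadjusted p under 0.05. DESeq2 called 1 of them, Thbd, and limma-voom called Serping1, F2rl3 and Thbd.

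In GAT, the same question gave higher values of Plau and Plaur in Azin2-/- mice that did not pass edgeR's test. Plau was 134, 89.0, 155 and 102 normalised CPM in wild-type GAT and 140.3, 225, 180.1 and 213 in Azin2-/- GAT. Only the highest wild-type library, replicate 3, and the lowest Azin2-/- library, replicate 1, crossed. The log2 fold change was 0.67 (SE 0.202, edgeR adjusted p = 0.079). Plaur was 16.8, 20.5, 10.2 and 12.02 in wild-type and 15.5, 32.8, 30.8 and 23.5 in Azin2-/- GAT. Here too Azin2-/- replicate 1 was the library within the wild-type range, and the log2 fold change was 0.79 (SE 0.278, edgeR adjusted p = 0.111). Leaving out each library in turn, both were called in 1 of 8 fits, the one without that library, chosen here for its values, Plau at 0.78 (SE 0.193, edgeR adjusted p = 0.0335) and Plaur at 0.97 (SE 0.245, adjusted p = 0.0366), in a fit that called 15.7% of 17053 genes and 10.3% as higher. Without wild-type replicate 3, which holds epididymis transcripts, Plau was called at 0.83 (SE 0.189, edgeR adjusted p = 0.048), in a fit that called 1343 of 16912 genes. The other 6 fits, without wild-type replicate 1, 2 or 4 or Azin2-/- replicate 2, 3 or 4, called none of the 5 genes. Of all genes, the fit without wild-type replicate 1 called 1683 of 17063, and each of the rest called at most 1. Those with at most 1 call therefore cannot set these genes apart from the others. DESeq2 called Plau and Plaur with adjusted p = 0.0168 and 0.0344, and so did limma-voom with 0.00151 and 0.0219, but these tools called 18.4% and 38.5% of all tested genes. In the full fit 0 of the 5 genes were called, 2 had an unadjusted p under 0.05, and 6.77% of 16778 genes were called.

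Serpine2 in GAT was 47.7, 37.1, 43.8 and 47.1 in wild-type and 50.1, 52.4, 46.8 and 48.6 normalised CPM in Azin2-/- mice. The ranges overlapped and the log2 fold change was 0.18 (SE 0.0851, edgeR adjusted p = 0.2). Plat was 29.1, 33.5, 23.7 and 35.4 in wild-type and 37.8, 36.4, 32.0 and 32.5 in Azin2-/- GAT, with a log2 fold change of 0.20 (SE 0.127, edgeR adjusted p = 0.328). Summed macrophage markers were 439 to 605 CPM in wild-type and 772 to 1705 CPM in Azin2-/- GAT, with 5 of 5 called higher and the lowest Azin2-/- sum in replicate 1. Their part in the values of Plau and Plaur was not tested. Of the pathway list 2 of 30 were called, both higher, where 6.77% of all tested genes were called. DESeq2 called 7 higher and 5 lower, where it called 18.4% of all genes. By limma-voom 8 were called higher and 1 lower, where it called 38.5%. Mrc2 was 121 ± 17.1 in wild-type and 305 ± 76.3 (SD, n = 4 each) in Azin2-/- GAT, with a log2 fold change of 1.35 (SE 0.189, edgeR adjusted p = 0.0408). F2r, the gene of the main thrombin receptor, was 20.6 ± 0.588 and 29.4 ± 2.82 (SD, n = 4 each), with a log2 fold change of 0.52 (SE 0.0777, edgeR adjusted p = 0.0408). Neither was called without Azin2-/- replicate 2, 3 or 4 or wild-type replicate 2 or 4, fits in which at most 1 gene of all was called.

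Between depots, Serpine2 was lower in GAT than in SAT in both genotypes. In wild-type mice its values, given above, did not overlap, with 131 ± 13.4 (SD, n = 5) normalised CPM in SAT and 43.9 ± 4.84 (SD, n = 4) in GAT, a 2.998-fold lower level. The log2 fold change of GAT against SAT was -1.58 (SE 0.105), and it lay between -1.62 and -1.51 when each library was left out in turn. This difference was a reason for listing the gene. Plau went the other way in these mice, with every GAT library above every SAT library and a log2 fold change of 0.99 (SE 0.183). Of the others, Plaur had 0.46 (SE 0.301) and Plat -0.084 (SE 0.138), each with overlapping libraries. Over all 17030 tested genes, 10.1% had depots that did not overlap and 4.33% were called by edgeR. Of 31 pathway genes tested there, 2 were called higher in GAT, Thbd at 1.17 (SE 0.171, edgeR adjusted p = 0.00751) and St14 at 3.48 (SE 0.684, adjusted p = 0.027), and Procr was called lower at -0.94 (SE 0.21, adjusted p = 0.0383). St14 encodes matriptase, an epithelial protease, and Procr the endothelial protein C receptor, a partner of thrombomodulin. St14 was 1.09 to 3.27 normalised CPM in wild-type SAT and 10.97, 8.51, 61.9 and 10.3 in wild-type GAT. Without the highest of these, replicate 3, which holds epididymis transcripts, St14 had a log2 fold change of 2.25 (SE 0.305, edgeR adjusted p = 0.00719), a 4.76-fold difference in place of 11.1-fold. St14 was not called without wild-type SAT replicate 1, 2, 4 or 5, and Procr was called only in the fits that left out GAT replicate 3 or SAT replicate 2. Thbd was called in each of these fits. Serpinb2, the gene of plasminogen activator inhibitor 2, was not called between wild-type depots, at 2.93 (SE 0.922, edgeR adjusted p = 0.115). It was at 0 to 0.45 normalised CPM in wild-type SAT and at 0.77 to 2.02 in wild-type GAT. With genotype in GAT it had -0.37 (SE 0.391, edgeR adjusted p = 0.556), and with diet and with genotype in SAT it was not tested.

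The Azin2-/- libraries allow the depots to be compared in mice other than the wild-type ones, although Serpine2, listed for its depots with no word on which mice, is again only described. Serpine2 was 107 ± 18.9 (SD, n = 3) normalised CPM in Azin2-/- SAT and 49.5 ± 2.37 (SD, n = 4) in Azin2-/- GAT. All GAT libraries lay below all SAT libraries, by 2.16-fold, with a log2 fold change of -1.11 (SE 0.128) that lay between -1.22 and -0.94 when each library was left out in turn. Plau was 84.5, 56.1 and 59.9 in Azin2-/- SAT, below every Azin2-/- GAT library, with a log2 fold change of 1.502 (SE 0.209, edgeR adjusted p = 0.0147). Plaur was 14.7, 6.83 and 11.97 in Azin2-/- SAT, also below all of GAT, at 1.20 (SE 0.329, edgeR adjusted p = 0.0497). Plat, at 0.55 (SE 0.141, edgeR adjusted p = 0.0429), was higher in GAT as well. With DESeq2 size factors in place of TMM scaling Plaur was not called, and with no count filter neither Plaur nor Plat was. Of the 4 genes other than Serpine2, 3 were called, all higher in GAT, where 15.2% of 16800 genes were called (9.13% higher) and 31.1% had depots that did not overlap. None of these was called when Azin2-/- GAT replicate 2 was left out, where Plau had 1.41 (edgeR adjusted p = 0.0574), or SAT replicate 3, where it had 1.41 (adjusted p = 0.0732). Those fits called 36 and 40 genes of all. Without GAT replicate 3 or 4 only Plau was called among them, in fits that called 278 of 16627 and 218 of 16609 genes. Without GAT replicate 1 Plat was not called, in a fit that called 2950 of 16604 genes. Without the muscle-rich SAT replicate 2 Plaur was not (edgeR adjusted p = 0.0827), where 2532 of 17220 genes were called.

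Of the pathway list, 5 of 29 genes were called between Azin2-/- depots, all higher in GAT, where 15.2% of all tested genes were called and 9.13% were called higher. Serpinb2 was at 0 to 0.11 normalised CPM in Azin2-/- SAT, from at most 4 reads a library, and at 0.58 to 1.57 in GAT (edgeR adjusted p = 0.0189). F13a1 had a log2 fold change of 0.89 (SE 0.185, edgeR adjusted p = 0.0258), Serping1, the C1 inhibitor gene, 0.83 (SE 0.19, adjusted p = 0.0312) and St14 2.59 (SE 0.648, adjusted p = 0.0396). Lrp1, whose product clears protease and serpin complexes, was the other, at 0.61 (SE 0.159, edgeR adjusted p = 0.0436). These 5 calls were all lost without GAT replicate 2, GAT replicate 3 or SAT replicate 3, and only Serpinb2 was called without GAT replicate 4. In that order, the 4 fits called 36, 278, 40 and 218 genes of all. Without the muscle-rich SAT replicate 2, 4 were called higher and 4 lower, in a fit that called 2532 of 17220 genes. Serping1 and Lrp1 were not among these calls. The depots differed in their cell markers too. Schwann cell markers summed to 28.9 to 240 CPM in wild-type SAT and 4.42 to 94.2 CPM in wild-type GAT, where replicate 3 was the highest and the others were at most 5.28 CPM, and to 33.1 to 140 CPM and 2.78 to 6.10 CPM in Azin2-/- mice, with 4 of 5 called lower in GAT in each genotype. Mesothelial markers, of cells that line visceral fat, summed to at most 3.45 CPM in these SAT libraries and to 27.8 to 456 CPM in GAT, with 5 of 5 called higher in each genotype. Macrophage markers had 5 of 5 called higher in Azin2-/- GAT and 1 of 5 in wild-type GAT. Adipose progenitor markers summed to 498 to 677 CPM in SAT and 417 to 504 CPM in GAT of wild-type mice, with 1 of 5 called lower in GAT, and to 327 to 586 CPM and 414 to 473 CPM in Azin2-/- mice, with 0 of 5 called. Their parts in the levels of Serpine2, Plau and Plaur were not tested.

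Whether the difference between depots changed with genotype was tested as an interaction, which shares its libraries with the comparisons above and includes those that led to the listing of Serpine2. By edgeR 0 of 18033 genes were called (0%), with 2016 at an unadjusted p under 0.05, while DESeq2 called 158 (0.876%) and limma-voom 2731 (15.1%). The log2 fold change between depots in Azin2-/- mice minus that in wild-type mice was 0.48 for Serpine2 (SE 0.166), given as a description. It was 0.64 for Plat (SE 0.209, edgeR adjusted p = 0.346), 0.52 for Plau (SE 0.292, adjusted p = 0.516) and 0.75 for Plaur (SE 0.481, adjusted p = 0.57). Of the 4 genes other than Serpine2, DESeq2 called 0 and limma-voom with sample quality weights called Plau, at 1.01 (adjusted p = 0.00858). Of the pathway list edgeR called 0 of 33, with 5 at an unadjusted p under 0.05, DESeq2 called 1, Lrp1, and limma-voom 6.

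Serpinf2 varied widely between libraries, from 1 to 3013 reads, with the most in the library labelled low-fat SAT replicate 1. Its group means ran from 0.14 normalised CPM in Azin2-/- GAT to 19.2 in low-fat SAT, which holds that library. It was 67.0, 0.70, 8.09 and 0.80 normalised CPM in low-fat replicates 1, 3, 5 and 6, and 4.10, 1.66, 8.92 and 2.33 in the high-fat libraries. In wild-type SAT it was 0.07, 9.20, 0.03, 0.14 and 0.06, and in Azin2-/- SAT 1.68, 0.08 and 0.28. In GAT it was 0.32, 0.41, 0.62 and 0.14 in wild-type and 0.16, 0.08, 0.30 and 0.02 in Azin2-/- mice. The groups overlapped in every comparison and edgeR called none of them. With diet the log2 fold change was -2.25 (SE 1.44, edgeR adjusted p = 0.287), and 0.40 (SE 1.09, adjusted p = 0.792) without the library labelled low-fat replicate 1. Low-fat replicates 1 and 5 and high-fat replicate 6 were also left out together, a choice made after seeing the data. Serpinf2 was then called higher on the high-fat diet at 2.71 (SE 0.802, edgeR adjusted p = 0.04996), in a fit that called 6701 of 17384 genes. That set drops low-fat replicate 5, with 800 CPM of summed hepatocyte markers, and keeps high-fat replicate 5, with 1010 CPM. The low-fat values left in it were 0.70 and 0.80.

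The libraries with high Serpinf2 were those with high liver transcripts, with 1 exception. The summed hepatocyte markers Alb, Apoa1, Ttr, Serpina1a and Tat were 800.5, 1010 and 761 CPM in low-fat replicate 5, high-fat replicate 5 and wild-type SAT replicate 2, the libraries in which Serpinf2 ranked just below the highest. Plg, the plasminogen gene, had 19.4, 27.7 and 24.4 normalised CPM in the same libraries and at most 7.89 in the others. In the library labelled low-fat replicate 1, where Serpinf2 was 67.0, Plg was 0.20 and the hepatocyte sum was 17.3 CPM. All 5 hepatocyte markers reached 1 CPM in some library of every group except Azin2-/- GAT, where 3 did and the sum was 4.76 to 10.8 CPM. In each group of the diet experiment the sum spanned a wide range, from 17.3 to 800.5 CPM on the low-fat and from 126 to 1010 CPM on the high-fat diet. The part of liver transcripts in the level of Serpinf2 was not tested. Plg itself was not called by edgeR in the full fit of any comparison, with log2 fold changes of 0.91 (SE 1.24, adjusted p = 0.614) with diet and -1.93 (SE 0.666, adjusted p = 0.107) with genotype in GAT. It was called between Azin2-/- depots without SAT replicate 2, with diet under the replicate block, and with genotype in GAT by DESeq2.

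**Figure D5:**
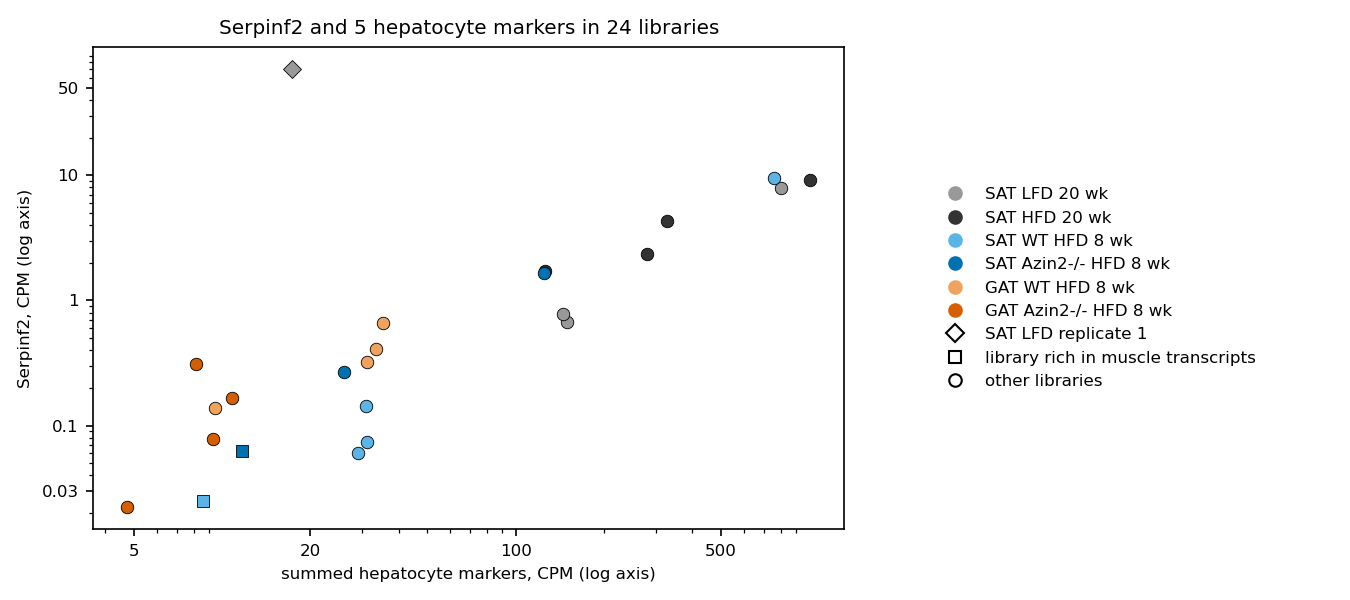
CPM of Serpinf2 (y axis, log) against the summed CPM of 5 hepatocyte markers (x axis, log) in 24 libraries, coloured by group. Serpinf2 is high where the sum is high, and the library labelled low-fat SAT replicate 1 (diamond) lies apart at a sum of 17.3 CPM.

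The genes whose levels ran most like each of the 5 across the 24 libraries were taken by Pearson's r of log2(CPM + 0.5) among 13431 genes, as a description of libraries that share groups and cell makeup. For Serpine2 they were Msrb3 (r = 0.925), the posterior homeobox gene Hoxc9 (0.924) and Dpt (0.924). Without the library labelled low-fat SAT replicate 1 they were Hoxa10 (0.942), Hoxa9 (0.936) and Zfhx4 (0.933). For Plau they were Sash3 (0.952), Loxl4 (0.945) and Rab3il1 (0.945), of which Sash3 is an adaptor gene of leukocytes, and without that library Prkcd (0.971), Plcg2 (0.968) and Tmem164 (0.964). For Plaur they were Coro1c (0.983), Slc25a24 (0.975) and Emp3 (0.972), and the first pair stayed in place without that library. For Plat they were Lpar1 (0.93), Trim30d (0.903) and Selenom (0.881), and without that library Lpar1 (0.929), Tgfbr2 (0.927) and Dbn1 (0.927). For Serpinf2 they were Fetub (0.973), a liver secreted protein gene, Sec14l2 (0.938) and Cyp4f15 (0.933), and without that library the liver genes Slco1b2 (0.989), Serpinc1 (0.988) and Plg (0.988).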

How the data were processed

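Each library has 1 table of read counts by Ensembl gene, deposited by the authors without normalisation. The submitters' processing notes name STAR, HTSeq 0.6.1p1 and cutadapt, with build GRCm38 (mm10), and per the labels' protocols the libraries were stranded total RNA. For the strand setting, counting mode and annotation release, nothing was given in the labels. Symbols and coordinates came from GENCODE M21.

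Each comparison was fitted on its own libraries with edgeR 4.0.16 in R 4.3.3, using filterByExpr (minimum count 10, minimum total count 15), TMM scaling and the robust quasi-likelihood test, with Benjamini-Hochberg adjustment over all genes tested. The SE is the log2 fold change divided by the root of the F statistic. All 5 genes passed the count filter in each comparison. A positive log2 fold change is a higher level in GAT, in Azin2-/- mice or after high-fat feeding. Marker sums are CPM of total counts. The scripts were tested on simulated data with known changes. With 0 reads a library may still hold up to 3 (95% confidence, counting error only).

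The 5 genes, the pathway list and the 16 marker lists were chosen with earlier results of these data known. Named genes were the 5, with Plg, Vtn and Serpinb2, up to 4 called pathway genes of smallest p per comparison, and the 3 genes most like each of the 5. The other pathway genes are named to account for small counts, after their values were seen. An item withheld from the pathway list is not reported here. Alternatives were DESeq2 1.42.0 size factors or Wald test, limma 3.58.1 voom with quality weights, no count filter, all 24 libraries in 1 fit, a replicate block, and leaving out libraries.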

Additional observations from a re-analysis of the deposited data

Results flagged for a closer look

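Within a group of 4 or 5 libraries, 3 of 25 values tested stood far from the others by Dixon's criterion, which chance gives in about 1 of 20 such groups. They were Plau in the library labelled low-fat SAT replicate 1, at 21.7 normalised CPM, Serpinf2 in the same library, at 67.0, and Serpinf2 in wild-type SAT replicate 2, at 9.20. The first library also holds the epididymis transcripts described above.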

How the results depend on the processing

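Of 380 values of single genes under the alternatives, 327 kept their direction and their side of the threshold, 22 lost the call, 13 gained it and 18 changed sign, and the cause was not tested. Counts of the 5 genes called moved to 5 with diet without the libraries rich in muscle or epididymis transcripts (low-fat replicates 1 and 5, high-fat replicate 6), an alternative chosen after seeing the data, to 2 with genotype in GAT under DESeq2 or limma-voom, to 2 between Azin2-/- depots with no count filter, and to 2 for the interaction under limma-voom. Of all genes, these fits called 6701 of 17384 with diet and, with genotype in GAT, 3079 (DESeq2) and 6456 (limma-voom) of 16778. They called 1777 of 28672 between Azin2-/- depots and 2731 of 18033 for the interaction. The counts of the 5 genes between depots and for the interaction include Serpine2, for which they are no test. Leaving out 1 library gave 2 to 4 called with diet, 0 with genotype in SAT, 0 to 2 in GAT, 0 to 4 between Azin2-/- depots and 0 for the interaction. Genes called of all ranged then from 1802 to 8109 (3622 in the full fit) with diet, 0 to 4 (1) and 0 to 2672 (1136) with genotype in SAT and GAT, 296 to 909 (738) and 36 to 3414 (2549) between wild-type and Azin2-/- depots, and 0 to 107 (0) for the interaction.

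Signs changed mostly for Serpinf2. With diet it had 1.03 under limma-voom, -2.90 to 0.40 when 1 library was left out and 2.71 without the muscle or epididymis libraries. With genotype in SAT it had 0.82 under limma-voom. For the interaction it had -2.57 under limma-voom and -4.57 to 1.96 when 1 library was left out. With genotype in SAT, leaving out 1 library gave -0.052 to 0.26 for Plau, negative without Azin2-/- replicate 1, and -0.20 to 0.31 for Plaur, negative without Azin2-/- replicate 1 or wild-type replicate 3 or 5. Between wild-type depots Plat had -0.16 to 0.014, positive without GAT replicate 3.

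Replicate numbers and animal marks in the titles were tried as a replicate block. With diet, the deviations of same-numbered libraries had correlations of -0.0867 to 0.319. The correlations were -0.0577 to 0.243 between wild-type depots and -0.0687 to 0.0424 between Azin2-/- depots. At 0.319 and at 0.243 the closest partner carried the same mark, and in the other pairs another library was closer. These values cannot decide whether libraries share a mouse, because depots of the same mouse need not deviate alike. The labels do not state it, so the main fits took libraries as unpaired. The calls between wild-type depots depend on that choice, as the block counts show. The block called 4 of the 5 genes and 5867 of all with diet, 3 and 1099 between Azin2-/- depots, and 0 of all between wild-type depots, where Serpine2 had -1.61. Serpinf2 under the block had 1.28 with diet, 0.55 between wild-type depots and 0.10 between Azin2-/- depots. Low counts limit Serpinf2 in GAT, with 1 to 26 reads a library.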
